A study of Mus musculus with 12 samples.

Results

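The genes described are 9 nuclear hormone receptors of mouse liver: the pregnane X receptor PXR (Nr1i2), the constitutive androstane receptor CAR (Nr1i3), the liver X receptors LXRbeta (Nr1h2) and LXRalpha (Nr1h3), the retinoid X receptor RXRalpha (Rxra), the peroxisome proliferator-activated receptors PPARgamma (Pparg) and PPARdelta (Ppard), the oestrogen receptor ERalpha (Esr1) and the glucocorticoid receptor (Nr3c1). They were taken by symbol from the 27304 genes of the deposited count table, all 9 were found, and all 9 passed the filter on low counts that left 13641 genes. RNA-seq had been run on 12 livers, 3 in each of 4 groups: Ahr-null males and Ahr-null females (genotype Apoe-/-AhR-/-), and control males and control females (genotype Apoe-/-). Every mouse, controls included, lacked Apoe, the gene of a lipoprotein carrier, and had been kept on a diet labelled HFD for 12 weeks. Not given in the sources used here are the age at the start of the diet, the allele of Ahr and the cells in which it was deleted.

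Nuclear hormone receptors are transcription factors that bind small lipophilic ligands, such as steroids, oxysterols, fatty acids, bile acids and drugs, and so tie gene expression to the chemical state of the cell. CAR, PXR, the LXRs and the PPARs bind DNA together with RXRalpha, whereas the glucocorticoid receptor and ERalpha bind mainly as pairs of their own kind and are held by chaperones until a ligand arrives. In hepatocytes CAR and PXR are known for the induction of drug-metabolising enzymes, the LXRs for cholesterol efflux and lipid synthesis, and the glucocorticoid receptor for the fasting response. The aryl hydrocarbon receptor, Ahr, is a ligand-activated transcription factor of another family that overlaps with CAR and PXR in the control of foreign-compound metabolism.

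Library totals ran from 9794253 to 18924880 counts, and levels are given as CPM, counts scaled to 1000000 per library after TMM scaling. Hepatocyte marker genes summed to between 20000 and 76380 CPM, so that all libraries carried the labelled tissue's transcripts. The Ahr transcript was not lower in the libraries labelled Ahr-null (averaged log2 difference 0.13 ± 0.18, SE), which does not check the label where the allele is unknown, whereas its target Cyp1a2 averaged 123 ± 84 CPM in Ahr-null males against 945 ± 215 in control males. Its mean was 65.6 ± 31.2 CPM in Ahr-null females against 591 ± 121 in control females (SD, n = 3 each). Transcripts of 30 neural genes came to 765 CPM in Ahr-null female 1 and 470 CPM in control male 1, while no other library exceeded 148 CPM. Ahr-null female 1 also stood apart in the hepatocyte sum, where the other libraries reached at most 42960 CPM, in Xist (154 CPM, where the other 5 females had at least 679) and in the Y-linked Kdm5d (2.01 CPM, where the other 5 females had at most 0.207). Averaged genotype differences of the receptors are given with and without these 2 libraries. Mitochondrial genes took 30.5 to 52.7% of counts in Ahr-null males against 46.7 to 57.3% in control males, and 39.8 to 59.8% in Ahr-null females against 56.5 to 69.8% in control females. In whole liver, fewer cells of a type and less RNA per cell cannot be told apart.

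None of the 9 receptors passed the test for a genotype or sex difference in any of 5 comparisons (edgeR quasi-likelihood, Benjamini-Hochberg adjusted p under 0.05 over 13641 genes). Of all genes tested, 1.06% passed in the genotype comparison averaged over the sexes, 0.0367% in males, 0.161% in females, 0.00733% for the difference between the sexes' genotype effects, and 1.07% between males and females. In the same order of comparisons, 1, 2, 2, 1 and 3 of the 9 had an unadjusted p under 0.05, where 15.3%, 5.8%, 14.4%, 4.6% and 9.4% of all tested genes did. DESeq2 passed 1 receptor in the averaged genotype comparison, 1 in females and 2 between the sexes, where it passed 664, 491 and 358 genes in all, while limma-voom and limma on the deposited variance-stabilised values passed none of the 9. Without Ahr-null female 1 and control male 1, edgeR passed 2 receptors in the averaged comparison (432 genes in all) and 1 in males (27 genes in all), namely Nr1i3 and Ppard, and without Ahr-null female 1 alone the same 2 in the averaged comparison and Ppard in males. Nr1i3 had the largest averaged difference of the 9, with lower values in Ahr-null livers of both sexes, and Ppard had higher values in Ahr-null males.

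**Figure D1:**
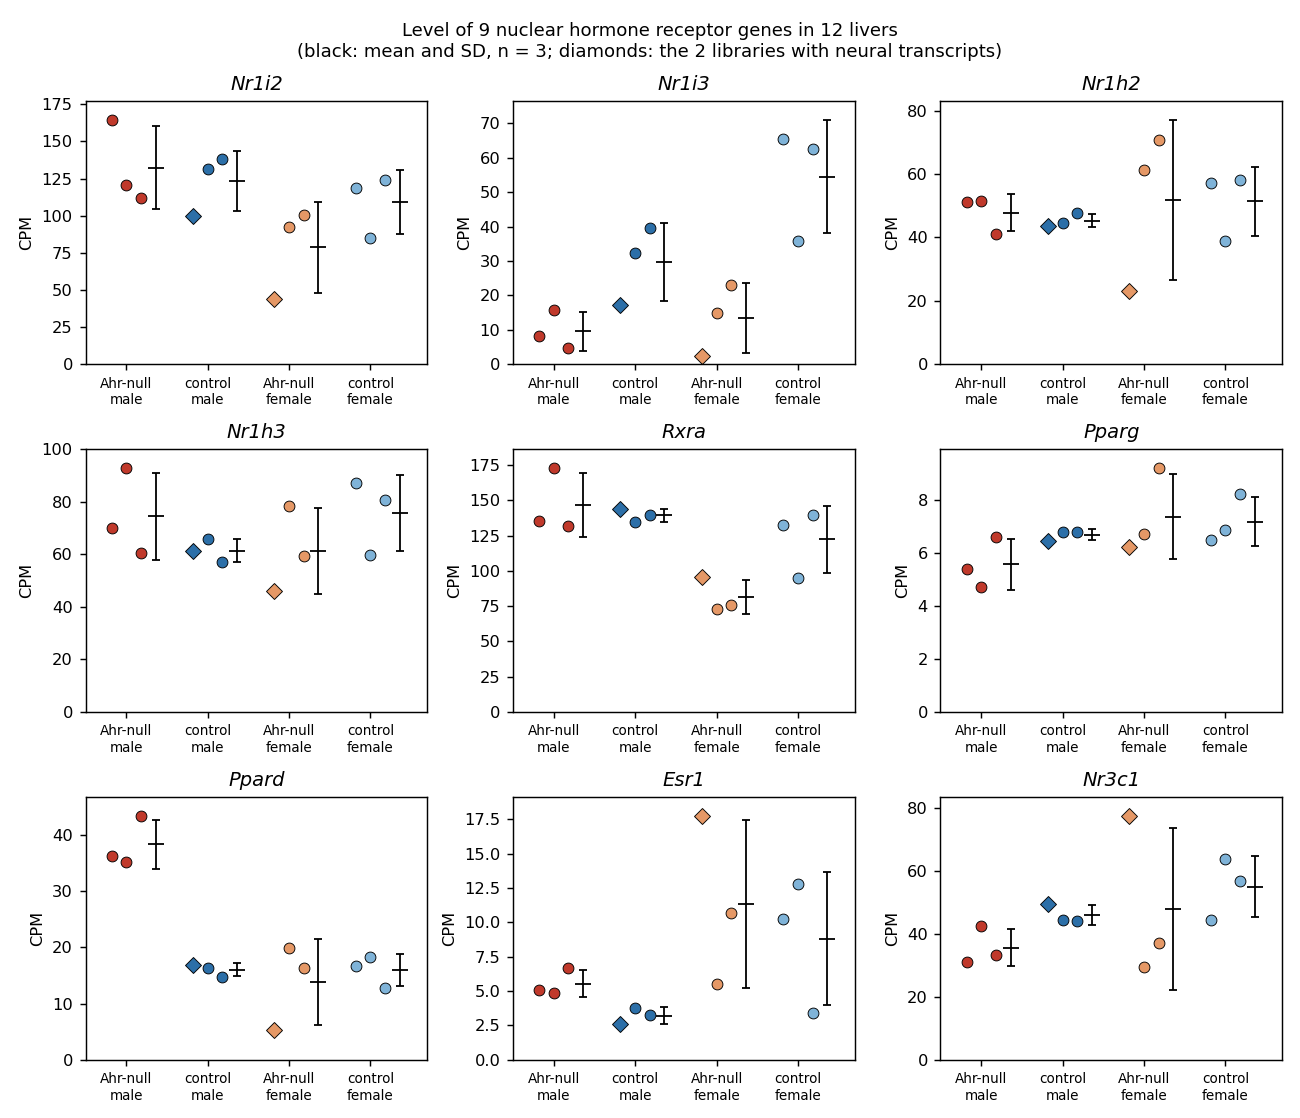
CPM of each receptor gene (y axis, from 0) in the 3 libraries of each group (x axis), with the group mean and SD in black and the 2 libraries with neural transcripts as diamonds. The 3 Ahr-null libraries lie below the 3 control libraries for Nr1i3 in each sex, and the 3 Ahr-null males lie above all other libraries for Ppard.

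CAR is encoded by Nr1i3 (ENSMUSG00000005677), at chr1:171213970-171220701 on the plus strand of GRCm38. Nr1i3 had 8.28, 15.7 and 4.62 CPM in Ahr-null males, against 17.2, 32.2 and 39.6 CPM in control males. It had 2.38, 14.9 and 22.9 CPM in Ahr-null females, against 65.3, 35.7 and 62.6 CPM in control females. Every Ahr-null library was below every control library of its sex, although control male 1, at 17.2 CPM, was below the highest Ahr-null female. The averaged difference was -1.83 ± 0.45 on the log2 scale (SE), a fold of 0.281 with a 95% interval of 0.142 to 0.554, and its adjusted p by edgeR was 0.0798. Within the sexes it was -1.65 ± 0.64 in males (adjusted p = 0.719) and -2.02 ± 0.64 in females (adjusted p = 0.208), and the difference between these effects was 0.37 ± 0.88 (adjusted p = 0.999).

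Nr1i3 varied more within groups than nearly all genes: its within-group SD of log2(CPM + 0.5) was 0.982, at the 97.6th percentile of tested genes, where the median gene had 0.421. That SD includes Ahr-null female 1, at 2.38 CPM against 14.9 and 22.9 CPM in Ahr-null females 2 and 3. It was not computed without that library. The averaged adjusted p was 0.00305 by DESeq2, which puts Nr1i3 past the threshold, 0.0444 with library size as the only scaling, 0.0728 by limma-voom and 0.0519 by limma on the deposited variance-stabilised values. Over all 20 alternatives it ran from 0.00305 to 0.261, and the log2 difference from -2.14 to -1.48. Without Ahr-null female 1, the library with the lowest Nr1i3 value, the difference was -1.59 and the adjusted p 0.0176, and without that library and control male 1 they were -1.72 and 0.0112. Exons of Nr1i3 overlap those of Tomm40l, a mitochondrial import gene on the other strand, and the strand setting of the counting is not given in the sources used here. Tomm40l held 556 counts over the 12 libraries against 4486 for Nr1i3, and its averaged difference was -1.29 ± 0.42 (edgeR adjusted p = 0.174). Because the strand setting is not given, how far the 2 genes share reads is not known, and it was not tested.

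PXR, the closest relative of CAR and a receptor for drugs and bile acids, is encoded by Nr1i2 (ENSMUSG00000022809), at chr16:38248323-38294824 on the minus strand. Nr1i2 had 164, 120 and 112 CPM in Ahr-null males, against 100.1, 132 and 138 CPM in control males. It had 43.7, 92.3 and 100.4 CPM in Ahr-null females, against 119, 84.6 and 124 CPM in control females. The genotypes overlapped in both sexes, with Ahr-null female 1 below all other libraries. The averaged difference was -0.18 ± 0.24, with a 95% interval of -0.69 to 0.33 (adjusted p = 0.775). It was -0.026 without Ahr-null female 1 and -0.088 without that library and control male 1.

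The ratio of the 2 receptors within a library does not depend on how libraries are scaled. Per kilobase of exon, Nr1i3 stood at 0.0238 to 0.0756 of Nr1i2 in Ahr-null males, against 0.0996 to 0.166 in control males. In females it stood at 0.0315 to 0.132 in Ahr-null livers, against 0.244 to 0.318 in control livers. The genotypes did not overlap in either sex, and the control females lay above all other libraries. Against Rxra, the partner of both receptors, Nr1i3 averaged 0.0772 ± 0.0347 per kilobase in Ahr-null males and 0.265 ± 0.104 in control males, and 0.219 ± 0.173 in Ahr-null females and 0.543 ± 0.073 in control females (SD, n = 3 each).

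**Figure D2:**
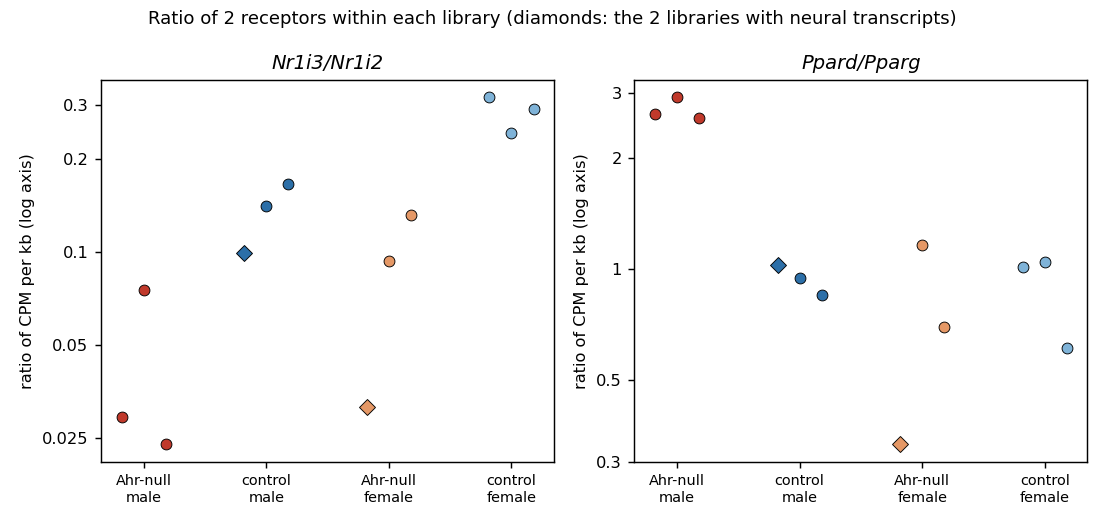
Ratio of Nr1i3 to Nr1i2 and of Ppard to Pparg in CPM per kilobase of exon (y axes, logarithmic) in each library, by group (x axes), with the 2 libraries with neural transcripts as diamonds. The Nr1i3 ratio is at most 0.0756 in Ahr-null males and 0.132 in Ahr-null females, and the Ppard ratio is at least 2.57 in Ahr-null males and at most 1.17 in every other library.

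PPARdelta, a fatty acid receptor found in many cell types of the liver, is encoded by Ppard (ENSMUSG00000002250), at chr17:28232700-28301474 on the plus strand. Ppard had 36.4, 35.3 and 43.4 CPM in Ahr-null males, against 16.9, 16.4 and 14.8 CPM in control males. It had 5.30, 20.0 and 16.3 CPM in Ahr-null females, against 16.7, 18.3 and 12.8 CPM in control females. The 3 Ahr-null males were above all other 9 libraries, whereas the females of the 2 genotypes overlapped and Ahr-null female 1 was lowest. In males the difference was 1.26 ± 0.37 on the log2 scale, a fold of 2.39 with a 95% interval of 1.37 to 4.16, and its adjusted p by edgeR was 0.443. In females it was -0.19 ± 0.37, with an interval of -0.99 to 0.60 (adjusted p = 0.848), and the difference between the sexes' effects was 1.45 ± 0.52 (unadjusted p = 0.0155, adjusted p = 0.886), so a sex-specific effect was not shown.

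The adjusted p for Ppard in males ran from 0.0119 to 1 over 21 alternatives, while the log2 difference stayed between 1.16 and 1.76. It passed the threshold when only the 6 males were fitted (1.29, adjusted p = 0.0410), without Ahr-null female 1 (1.27, adjusted p = 0.0119), and without that library and control male 1 (1.31, adjusted p = 0.0341). Averaged over the sexes it was 0.53 ± 0.26 (adjusted p = 0.352), 0.74 without Ahr-null female 1 (adjusted p = 0.0127), 0.76 without both libraries (adjusted p = 0.0218) and 1.06 with library size as the only scaling (adjusted p = 0.0438).

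PPARgamma, the fatty acid receptor that drives fat-cell differentiation and is low in healthy liver, is encoded by Pparg (ENSMUSG00000000440), at chr6:115360951-115490399 on the plus strand. Pparg had 5.40, 4.73 and 6.63 CPM in Ahr-null males, against 6.47, 6.81 and 6.82 CPM in control males. It had 6.22, 6.73 and 9.22 CPM in Ahr-null females, against 6.49, 6.87 and 8.24 CPM in control females. The genotypes overlapped in both sexes. The averaged difference was -0.11 ± 0.17, with an interval of -0.48 to 0.27 (adjusted p = 0.829), or -0.049 without Ahr-null female 1 and control male 1. Pparg had the smallest within-group SD of the 9 receptors, 0.200. Of 8 adipocyte markers, Adipoq was at 0 in all but Ahr-null females 2 and 3 (0.06 CPM each), and the list summed to 25.8 to 39 CPM in Ahr-null males against 50.2 to 54.3 CPM in control males, and 10.4 to 42.4 CPM in Ahr-null females against 37.1 to 52.2 CPM in control females.

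Per kilobase, Ppard stood at 2.57 to 2.93 times Pparg in Ahr-null males, against 0.852 to 1.03 times in control males. In females the ratio was 0.335 to 1.17 in Ahr-null livers, against 0.611 to 1.05 in control livers. The male genotypes were separated in this ratio and the female genotypes were not.

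Nr1i3 and Ppard are shown with the 250 bases before their RefSeq transcript start, since Nr1i3 had the largest genotype difference of the 9 in each sex and Ppard the next largest in males, though not in females, and since Ahr, with its partner ARNT, is known to bind DNA at the core letters GCGTG. The letters run 5′ to 3′ on the coding strand from the RefSeq table for GRCm38.p6, and capitals mark GCGTG, searched on both strands.

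Nr1i3, chr1:171213720-171213969, plus strand: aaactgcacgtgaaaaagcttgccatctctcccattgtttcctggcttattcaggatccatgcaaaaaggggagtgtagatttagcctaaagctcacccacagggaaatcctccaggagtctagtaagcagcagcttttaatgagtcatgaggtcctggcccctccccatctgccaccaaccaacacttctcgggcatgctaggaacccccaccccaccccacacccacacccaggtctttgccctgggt

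Ppard, chr17:28232504-28232753, plus strand: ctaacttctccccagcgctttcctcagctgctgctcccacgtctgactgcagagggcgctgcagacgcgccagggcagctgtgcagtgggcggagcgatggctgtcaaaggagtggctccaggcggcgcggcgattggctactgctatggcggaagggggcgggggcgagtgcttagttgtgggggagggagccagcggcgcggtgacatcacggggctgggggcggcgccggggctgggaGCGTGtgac

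The Nr1i3 stretch had a G and C content of 53.2% with 2 CpG pairs, and held no GCGTG. The Ppard stretch had 69.6% with 22 CpG pairs, and held GCGTG 1 time, 9 bases before the start. Among 13 promoters of the 8 receptors in that table, GCGTG was found in 1 other, a Pparg promoter, and it occurs in 28.2% of the 32851 promoters of that length. TATAAA, the TATA box, was found in 1 of the 13, also of Pparg, and occurs in 12.4% of all promoters of that length. These matches describe the letters only.

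LXRalpha, the oxysterol receptor of hepatocytes and macrophages, is encoded by Nr1h3 (ENSMUSG00000002108), at chr2:91184061-91202834 on the minus strand. Nr1h3 had 69.8, 92.7 and 60.6 CPM in Ahr-null males, against 61.2, 65.8 and 57.1 CPM in control males. It had 45.8, 78.2 and 59.4 CPM in Ahr-null females, against 87.0, 59.6 and 80.5 CPM in control females. The genotypes overlapped in both sexes. Its averaged difference was -0.01 ± 0.20, with an interval of -0.44 to 0.41 (adjusted p = 0.983), and 0.083 without Ahr-null female 1 and control male 1.

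LXRbeta, the more widely expressed oxysterol receptor, is encoded by Nr1h2 (ENSMUSG00000060601), at chr7:44549616-44553951 on the minus strand. Nr1h2 had 51.0, 51.4 and 40.9 CPM in Ahr-null males, against 43.6, 44.5 and 47.6 CPM in control males. It had 23.1, 61.2 and 70.9 CPM in Ahr-null females, against 57.1, 38.8 and 58.2 CPM in control females. The Ahr-null females enclosed the range of the control females, with Ahr-null female 1 lowest of all libraries. Its averaged difference was 0.05 ± 0.25, with an interval of -0.49 to 0.58 (adjusted p = 0.958), and 0.22 without Ahr-null female 1 and control male 1. Per kilobase, LXRalpha averaged 2.07 ± 0.30 times LXRbeta in Ahr-null males and 1.81 ± 0.19 times in control males, and 1.82 ± 0.77 times in Ahr-null females and 1.97 ± 0.11 times in control females (SD, n = 3 each). These means differ by less than the SDs of the Ahr-null groups.

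RXRalpha, the shared partner of CAR, PXR, the LXRs and the PPARs, is encoded by Rxra (ENSMUSG00000015846), at chr2:27676440-27762957 on the plus strand. Rxra had 136, 173 and 132 CPM in Ahr-null males, against 144, 135 and 139.9 CPM in control males. It had 95.5, 72.9 and 75.9 CPM in Ahr-null females, against 133, 95 and 139.6 CPM in control females. The male genotypes overlapped, and in females Ahr-null female 1 lay just above the lowest control. The difference in females was -0.59 ± 0.26 (unadjusted p = 0.0433, adjusted p = 0.332), against 0.07 ± 0.26 in males (adjusted p = 1.0), and the difference between these effects had an adjusted p of 0.999. The averaged difference was -0.26, and -0.30 without Ahr-null female 1 and control male 1.

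The glucocorticoid receptor is encoded by Nr3c1 (ENSMUSG00000024431), at chr18:39410545-39519421 on the minus strand. Nr3c1 had 31.2, 42.4 and 33.4 CPM in Ahr-null males, against 49.7, 44.4 and 44.2 CPM in control males. It had 77.5, 29.6 and 37.2 CPM in Ahr-null females, against 44.6, 63.8 and 56.9 CPM in control females. The Ahr-null males were all below the control males, by -0.37 ± 0.33 on the log2 scale (adjusted p = 1.0). The females overlapped, with Ahr-null female 1 above and the other 2 Ahr-null females below all controls. The averaged difference was -0.28, and -0.50 without Ahr-null female 1 and control male 1.

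ERalpha, the oestrogen receptor of hepatocytes, is encoded by Esr1 (ENSMUSG00000019768), at chr10:4611593-5005614 on the plus strand. Esr1 had 5.05, 4.88 and 6.67 CPM in Ahr-null males, against 2.61, 3.79 and 3.25 CPM in control males. It had 17.7, 5.53 and 10.7 CPM in Ahr-null females, against 10.3, 12.8 and 3.41 CPM in control females. The Ahr-null males were all above the control males, by 0.78 ± 0.48 (adjusted p = 0.949), and the females overlapped. The averaged genotype difference was 0.57 ± 0.33 (adjusted p = 0.441). It was 0.35 without Ahr-null female 1, 0.38 without control female 3 and 0.29 without Ahr-null female 1 and control male 1. Set against Nr3c1 within a library, Esr1 stood per kilobase at 0.0648 to 0.112 in Ahr-null males against 0.0295 to 0.0481 in control males, and at 0.105 to 0.162 in Ahr-null females against 0.0337 to 0.130 in control females.

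In all, the 3 Ahr-null males did not overlap the 3 control males for 4 of the 9 receptors, higher for Ppard and Esr1 and lower for Nr1i3 and Nr3c1, where 13.9% of all tested genes did not overlap (6.55% higher and 7.34% lower in Ahr-null males). In females this held for 1 of the 9, Nr1i3, which was lower, where 19.1% of all tested genes did not overlap and 9.9% were lower without overlap. With the sexes joined, 6 Ahr-null livers against 6 controls, it held for 0 of the 9, against 1.47% of all tested genes.

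**Figure D3:**
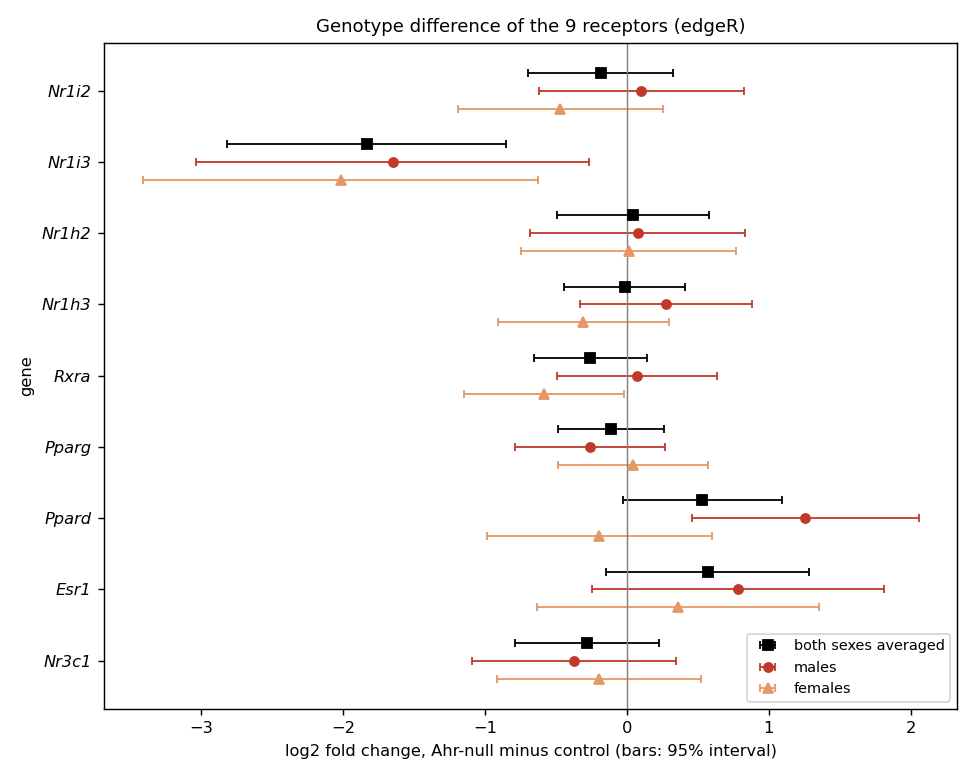
Genotype difference of each receptor (rows) on the log2 scale (x axis, Ahr-null minus control) averaged over the sexes, in males and in females, with 95% intervals as bars. All 3 intervals of Nr1i3 and the male interval of Ppard lie away from 0, the female interval of Rxra ends at -0.02, and all others include 0.

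Between the sexes, 3 receptors had an unadjusted p under 0.05, and none passed the test. Esr1 ranged from 2.61 to 6.67 CPM in males and from 3.41 to 17.7 CPM in females, a male-minus-female difference of -1.24 ± 0.33 (edgeR adjusted p = 0.146). Rxra ranged from 132 to 173 CPM in males and from 72.9 to 139.6 CPM in females, a difference of 0.52 ± 0.18 (adjusted p = 0.340). Ppard ranged from 14.8 to 43.4 CPM in males and from 5.30 to 20.0 CPM in females, a difference of 0.73 ± 0.26 (adjusted p = 0.337). The sexes overlapped for all 3. DESeq2 gave adjusted p-values of 0.0253 for Esr1 and 0.0361 for Rxra, past the threshold.

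Per kilobase of exon, which allows levels of different genes to be compared, the mean over the 12 libraries fell into an order that spans from 43.4 CPM per kilobase for Nr1i2 to 0.529 for Esr1. Nr1i2 was above the next gene, Nr1h3 (27.1 CPM per kilobase), in 11 of 12 libraries. Nr1h3 was above Rxra (22.4) in 9 libraries, and Rxra above Nr1h2 (14.6) in 10. Nr1h2 was above Nr1i3 (6.07) in all 12. Nr1i3 and Nr3c1 (6.02) were not separated, with Nr1i3 above in 5 libraries, nor were Ppard (2.80) and Pparg (2.28), with Ppard above in 7. Nr3c1 was above Ppard in 10 libraries and Pparg above Esr1 in all 12. Among 13637 tested genes with a length, Nr1i2 was at the 96.1th percentile of level per kilobase, Nr1i3 at the 76.1th, Ppard at the 59.1th and Esr1 at the 20.5th.

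The patterns most like a receptor's across the 12 libraries were found by the mean absolute difference of z-scored log2 CPM, for which the median over all tested genes was 1.1 against Nr1i3 and 1.0 against Ppard. Acy1 (0.190) and Erdr1 (0.204) were most like Nr1i3, and Pi4k2a (0.251) and Rfxank (0.253) were most like Ppard. For Nr1h2, Ankrd24 differed by 0.18 and Kat5 by 0.182. For Rxra, Arhgef26 differed by 0.347, and for Esr1, Nt5e by 0.348.

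The other nuclear receptors gave a wider view of the family. Of 40 listed, 30 were tested and none passed the test in any comparison by edgeR. In the averaged genotype comparison DESeq2 passed 5 as lower, Esrrg and Nr2c2 among them, and limma-voom passed 0. Without Ahr-null female 1 and control male 1, edgeR passed 2 as lower in it, Esrrg among them. Of all genes tested, DESeq2 passed 339 of 13641 as lower, and edgeR without those 2 libraries 225 of 13768. By edgeR on all 12 libraries, 27 of the 30 had a negative averaged difference and 3 a positive one. Their median was -0.32 where all tested genes had 0.04. An unadjusted p under 0.05 was found for 11 of the 30 (36.7%), against 15.3% of all tested genes. With library size as the only scaling the median of all tested genes is 0.53, so that differences near 0 change sign with the scaling. Nr2c2, an orphan receptor, had 7.49, 12.7 and 3.75 CPM in Ahr-null males against 21.3, 9.91 and 12.3 CPM in control males, and 7.22, 8.17 and 8.33 CPM in Ahr-null females against 20.6, 32.2 and 14.8 CPM in control females (-1.19 ± 0.30, edgeR adjusted p = 0.0879). Esrrg, an oestrogen-related orphan receptor, reached at most 2.0 CPM in any library (-2.0 ± 0.53, adjusted p = 0.0980). The bile acid receptor Nr1h4, at 76.9 CPM per kilobase, and Hnf4a, at 48.8, were the only 2 of the 49 receptors above Nr1i2.

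**Figure D4:**
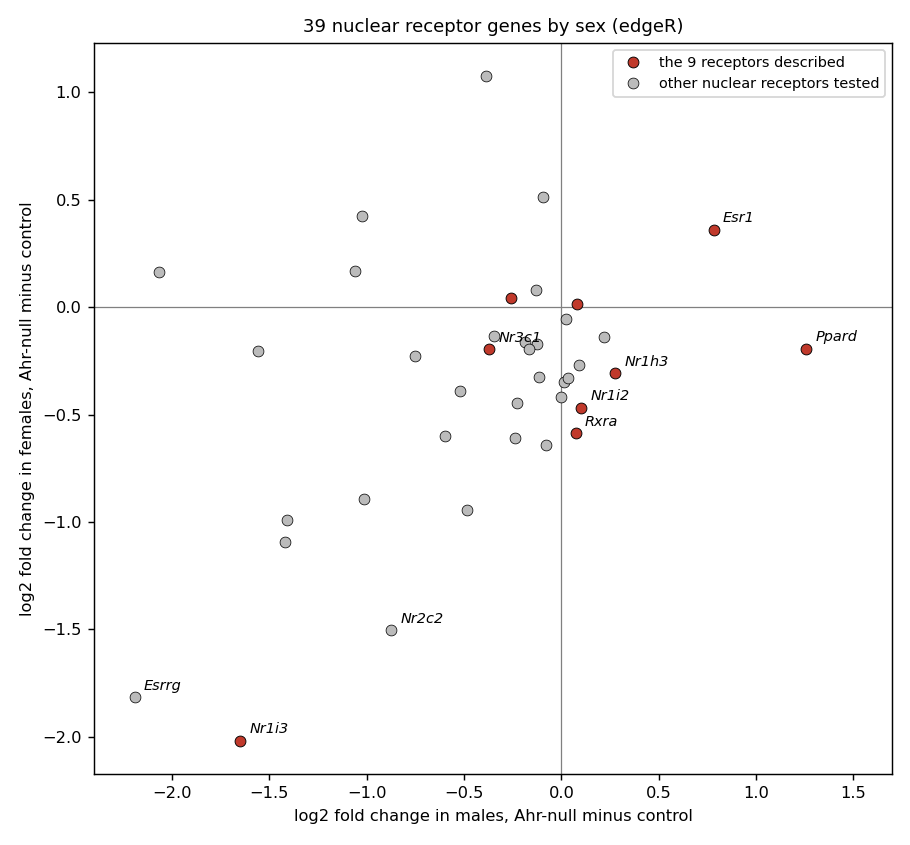
Genotype difference on the log2 scale (Ahr-null minus control) in males (x axis) and females (y axis) for the 39 nuclear receptor genes tested, with the 9 described here in red. Nr1i3 lies at -1.65 and -2.02, near Esrrg at the lower left, and Ppard lies farthest to the right at 1.26 and -0.19.

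Target genes were counted by receptor, in lists from general knowledge of each receptor. Some genes are in more than 1 list and were counted in each. Of all tested genes, 0.528% rose and 0.528% fell in the averaged genotype comparison, and 0.132% fell in females, with a median averaged difference of 0.04. An unadjusted p under 0.05 in the averaged comparison was found for 15.3% of all tested genes. Of 27 tested genes induced by CAR or PXR, 1 rose and 1 fell in the averaged genotype comparison, and 25 did not pass the test, with a median difference of -0.34 and an unadjusted p under 0.05 for 11 genes (40.7%). Their averaged differences ran from -2.80 to 5.07, and the gene at 5.07 did not pass. The median was 0.05 in males, with 15 positive and 12 negative differences, and -0.35 in females, with 8 positive and 19 negative. Gstm3, a glutathione transferase, had 198, 25 and 289 CPM in Ahr-null males against 17.6, 39.2 and 27.5 CPM in control males, and 142, 159 and 51.4 CPM in Ahr-null females against 29.7, 35.9 and 23.3 CPM in control females (2.30 ± 0.49, edgeR adjusted p = 0.0429). Cyp2c54, a cytochrome P450, had 67.3, 315 and 74.9 CPM in Ahr-null males against 619, 447 and 375 CPM in control males, and 116, 28.1 and 103 CPM in Ahr-null females against 399, 501 and 524 CPM in control females (-2.09 ± 0.44, adjusted p = 0.0424). Cyp2c54 was lower in all Ahr-null livers of each sex, whereas for Gstm3 Ahr-null male 2 lay among the controls. Both belong to families of near-identical genes that can share reads, so their values are uncertain. Without Ahr-null female 1 and control male 1, 4 of the 27 fell in the averaged comparison and none rose, the 4 being Cyp2c37, Cyp2c50, Cyp2c54 and Cyp3a41a. Of 13768 genes tested in that fit, 225 fell and 207 rose. The limit on shared reads given for Cyp2c54 holds for Cyp2c37, Cyp2c50 and Cyp3a41a as well. Over all 12 libraries, Cyp3a41a reached at most 1.66 CPM in Ahr-null males and 1.55 CPM in control males. In females it had 0.24 to 14.8 CPM in Ahr-null livers against 85.1 to 625 CPM in control livers, so its averaged fall came from the females. Without those 2 libraries it also passed in females and for the difference between the sexes' genotype effects. Cyp2b10, the gene by which CAR activation is usually read, had 8.04, 14.4 and 18.0 CPM in Ahr-null males against 10.8, 4.57 and 5.48 CPM in control males, and 2.10, 1.92 and 4.64 CPM in Ahr-null females against 2.28, 2.29 and 3.16 CPM in control females. Its genotype values overlapped in both sexes (0.57 ± 0.31, adjusted p = 0.409).

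Of 17 LXR targets tested, none passed for genotype in edgeR (1 with unadjusted p under 0.05, or 5.9%), and the median difference was -0.15. The smallest p was that of Rnf145, a ubiquitin ligase of sterol control (0.67 ± 0.19, adjusted p = 0.116), and the next that of Mlxipl, the transcription factor ChREBP (-0.85 ± 0.46, adjusted p = 0.395). DESeq2 passed Rnf145 as the 1 gene of the list, limma-voom passed 0, and edgeR without Ahr-null female 1 and control male 1 passed 0. In the averaged genotype comparison DESeq2 passed 664 of all 13641 genes tested.

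Of 11 PPARgamma targets tested and 10 PPARdelta targets tested, none passed for genotype (4 of each list with unadjusted p under 0.05, or 36.4% and 40%), with medians of -0.05 and -0.20. Cidec, a lipid droplet protein, had 12.1, 0.620 and 7.49 CPM in Ahr-null males against 0.168, 2.71 and 2.23 CPM in control males, and 3.20, 7.09 and 3.48 CPM in Ahr-null females against 0.966, 1.42 and 0.915 CPM in control females (2.03 ± 0.62, adjusted p = 0.150). Pdk4, a brake on pyruvate oxidation and a widely used PPARdelta target, differed by 1.7 ± 0.54 (adjusted p = 0.164). Slc25a20, the acylcarnitine carrier of mitochondria, had 61.1, 56.3 and 58.3 CPM in Ahr-null males against 100.2, 88.0 and 86.0 CPM in control males, and 60.2, 59.0 and 58.6 CPM in Ahr-null females against 88.2, 139 and 96.6 CPM in control females (-0.75 ± 0.17, adjusted p = 0.0589). The 6 Ahr-null livers were all below the 6 controls for Slc25a20, and without Ahr-null female 1 and control male 1 it was the 1 gene of the PPARdelta list that passed. DESeq2 passed Cidec, Pdk4 and Slc25a20, and limma-voom 0 genes of either list. Of all 13641 genes tested, DESeq2 passed 664 in the averaged genotype comparison.

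Of 20 genes of the glucocorticoid receptor list, 1 fell in the averaged comparison and none rose, with a median of -0.34 and an unadjusted p under 0.05 for 9 genes (45%), and in females 1 fell with a median of -0.58. In males none passed and the median was 0.02, with 11 positive and 9 negative differences. The difference between the sexes' effects was positive for 18 of the 20 genes, with a median of 0.68, and none passed. Dusp1, a phosphatase that damps MAP kinases, had 45.6, 62.4 and 39.3 CPM in Ahr-null males against 55.7, 79.1 and 86.2 CPM in control males. It had 11.1, 20.2 and 12.3 CPM in Ahr-null females against 73.9, 63.8 and 41.4 CPM in control females. The males overlapped and the females did not, with differences of -1.31 ± 0.23 averaged (edgeR adjusted p = 0.0196) and -2.04 ± 0.34 in females (adjusted p = 0.0405). Sgk1, a kinase induced by glucocorticoids, differed the other way without passing (1.0 ± 0.24, adjusted p = 0.0678). Without Ahr-null female 1 and control male 1, Dusp1 and Tdo2 fell and Igfbp1 rose.

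Of 8 oestrogen-responsive genes tested, 2 (25%) had an unadjusted p under 0.05 and 1 rose, the cell-cycle gene Ccnd1. It had 12.9, 2.71 and 13.6 CPM in Ahr-null males against 6.55, 1.78 and 3.18 CPM in control males, and 30.4, 14.7 and 18.3 CPM in Ahr-null females against 3.93, 5.24 and 3.08 CPM in control females (1.87 ± 0.40, edgeR adjusted p = 0.0475). The male genotypes overlapped and the female genotypes did not.

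**Figure D5:**
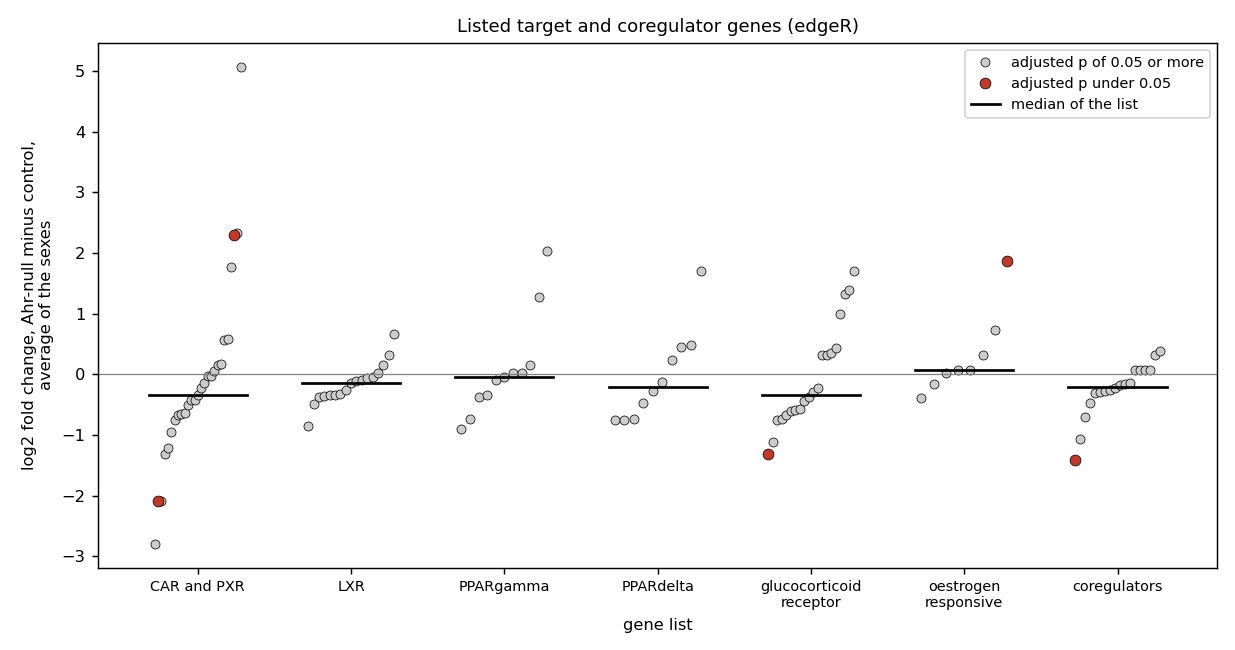
Averaged genotype difference on the log2 scale (y axis, Ahr-null minus control) of every tested gene in 7 lists (x axis), with genes at an adjusted p under 0.05 in red and the median of each list as a line. The genes that passed are Gstm3 and Cyp2c54 for CAR and PXR, Dusp1 for the glucocorticoid receptor, Ccnd1 for oestrogen and Ppargc1b for the coregulators, and the medians lie between -0.34 and 0.07.

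Among genes that supply or clear ligands, Hsd11b1, which makes active glucocorticoid from its inert form, had 30.9, 88.8 and 47.0 CPM in Ahr-null males against 119, 105 and 100.6 CPM in control males, and 132, 29.6 and 43.9 CPM in Ahr-null females against 156, 201 and 152 CPM in control females. The genotypes did not overlap in either sex, and the difference did not pass the test (-1.13 ± 0.36, adjusted p = 0.165), although without Ahr-null female 1 and control male 1 Hsd11b1 and Akr1d1 fell.

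Of 18 coregulators tested, 1 fell and none rose, with a median of -0.20 and an unadjusted p under 0.05 for 4 (22.2%). Ppargc1b, a coactivator of nuclear receptors in mitochondrial and lipid programmes, had 16.4, 20.1 and 10.5 CPM in Ahr-null males against 54.0, 36.3 and 30.4 CPM in control males, and 9.78, 27.6 and 31.5 CPM in Ahr-null females against 52.0, 79.8 and 58.9 CPM in control females (-1.41 ± 0.29, edgeR adjusted p = 0.0382). The genotypes did not overlap in either sex. Ncor1, the corepressor that unliganded receptors recruit, differed by -1.06 ± 0.31 without passing (adjusted p = 0.140). Of 12 chaperones that hold steroid receptors, none passed in any comparison by edgeR, DESeq2 or limma-voom (0 with unadjusted p under 0.05 in the averaged one by edgeR), and the smallest p was that of Hsp90ab1 (-0.47 ± 0.25, adjusted p = 0.389).

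The 5 genes named above that passed in the averaged comparison had adjusted p-values between 0.0196 and 0.0475. With each of the 12 libraries left out in turn, Ppargc1b and Cyp2c54 passed only without Ahr-null male 2 or Ahr-null female 1, and Gstm3 only without Ahr-null male 2 or Ahr-null female 3. Ccnd1 passed without control male 1, Ahr-null male 2 or Ahr-null female 1, and Dusp1 without those or Ahr-null female 2. In the other cases their adjusted p reached at most 0.182, with the same sign throughout. In females Dusp1 passed only without Ahr-null male 2 or Ahr-null female 1.

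Between the sexes, 0.689% of all tested genes were called higher in males and 0.381% lower. Among the listed genes, 2 of 13 that supply or clear ligands rose and 1 fell in males relative to females, 1 of 27 CAR and PXR targets rose and 4 fell, and 2 of 20 genes of the glucocorticoid list rose. Among PPARgamma targets 1 of 11 fell, among PPARdelta targets 2 of 10, and among oestrogen-responsive genes 1 of 8. Vldlr is in both PPAR lists and was counted as falling in each. Several of these calls were lost in most of the 12 fits that left out 1 library. Abcb1a, Ugt1a1, Zbtb16 and Ucp2 passed in 2 of these fits, and Serpina6, Vldlr and Cyp3a41a in 3. Cyp7b1, which hydroxylates oxysterols and steroids, rose by 3.25 ± 0.32 on the log2 scale in males relative to females, and Cebpd, a transcription factor in the glucocorticoid list, by 1.30 ± 0.20, and both passed with every library left out in turn (edgeR adjusted p at most 0.00306 and 0.0281). Srd5a1, the steroid 5-alpha-reductase, was higher in males by 1.48 ± 0.24 (adjusted p = 0.00991) and Cyp2b10 by 1.82 ± 0.31 (adjusted p = 0.0148). Srd5a1 lost its call without control female 1 or 2, and Cyp2b10 without either of these or Ahr-null male 2. Cyp17a1, a steroid hydroxylase, fell by 1.73 ± 0.32 in males relative to females, averaged over the genotypes (edgeR adjusted p = 0.0204). It passed in 6 of the 12 fits that left out 1 library, those without a control female, Ahr-null male 1, or Ahr-null female 1 or 3. Control males had 7.65 to 9.60 CPM of Cyp17a1 against 39.5 to 124 CPM in control females. The Ahr-null sexes overlapped, with 27.7 to 44.0 CPM in males and 33.7 to 68.7 CPM in females.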

How the data were processed

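Per the labels, 12 liver samples were sequenced, 3 for each combination of genotype and sex, and replicate numbers only name the libraries. Per the submitters' processing notes, the build was GRCm38 and the tools were DESeq2 1.28.1, STAR 2.7.8, FastQC 0.11.8 and Trim Galore 0.6.5. Which counter was used, with which strand setting and gene annotation, is not given in the sources used here. The authors deposited raw whole-number counts per gene, and also variance-stabilised values on a scale near log2. The labels do not say outright that each sample is a separate mouse, so p-values rest on the spread among samples, which may be technical.

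From the counts, filterByExpr by group kept 13641 of 27304 genes, which were fitted in edgeR 4.0.16 (R 4.3.3) as 4 group means with TMM scaling and 8 residual degrees of freedom. Tests were two-sided, robust quasi-likelihood tests, and a gene was called where its p, adjusted over all tested genes by Benjamini-Hochberg, was under 0.05. Contrasts were Ahr-null minus control (averaged, in males, in females), the difference of the last 2, and male minus female. The SE is the absolute log2 difference divided by the square root of F. CPM per kilobase uses merged exon length of the GENCODE gene models for GRCm38. The procedure was tested on simulated counts.

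The receptors, the gene lists and the alternatives were chosen with earlier results of these data known. Of each list the text names genes called in any contrast (up to 4) and the 2 with the smallest averaged p, or a part of these, while Akr1d1, Igfbp1, Tdo2, Cyp2c37 and Cyp2c50, as well as Nr1h4 and Hnf4a, were named after their values were seen. Some listed genes are not reported here. Alternatives were RLE factors, library size alone, 2 other low-count filters (1 count in any library, or 1 CPM in 3 libraries), DESeq2 1.42.0, limma-voom and limma 3.58.1 on the deposited values, fits of 1 sex, each library left out in turn, and the 2 libraries with neural transcripts left out. Applying these to listed genes and lists was decided after seeing the data. Promoters were those of the RefSeq table, in which Nr3c1 was not matched.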

Additional observations from a re-analysis of the deposited data

How the results depend on the processing

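No paired analysis was possible because the labels give no replicate numbers that the groups share. With library size as the only scaling, the median difference of all genes moved to 0.53 for the averaged genotype comparison and 93.6% of called genes were higher, against 50% with TMM. The numbers of genes called were then 1053 for the averaged comparison, 12 in males, 117 in females and 3 for the difference between the sexes, and 2 receptors were called in the averaged comparison. The signs that turned under that scaling were, in the averaged comparison, Nr1i2 (0.29), Nr1h3 (0.45), Rxra (0.20), Pparg (0.39) and Nr3c1 (0.21), in males Pparg (0.24) and Nr3c1 (0.074), in females Nr1i2 (0.0084), Nr1h3 (0.20), Ppard (0.36) and Nr3c1 (0.35), and between the sexes Nr1h2 (0.10), Nr1h3 (0.20) and Pparg (0.045). DESeq2 called 664, 106, 491, 20 and 358 genes in the averaged, male, female, interaction and sex comparisons, and 1 receptor in the averaged and 1 in the female comparison and 2 between the sexes. limma-voom called 3 genes in males, and limma on the deposited values 9 in males, 45 in females and 4 in the interaction. The sign of Nr1h2 turned with limma-voom (-0.031 averaged, -0.14 in females) and with the deposited values (-0.0099 and -0.11), and the sex difference of Nr1h3 turned with limma-voom (0.019), the deposited values (0.0069) and no count filter beyond 1 count (0.018). Without the 2 libraries with neural transcripts, 432, 27, 235, 4 and 262 genes were called, 2 receptors in the averaged comparison and 1 in males, and the signs of Nr1h3 averaged (0.083), Nr1i2 in males (-0.016), Ppard (0.21) and Esr1 (-0.094) in females, and the interactions of Nr1i3 (-0.42), Nr1h2 (-0.32) and Nr3c1 (0.40) turned. The cause of these changes was not tested.

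With each library left out in turn, the genes called ran from 6 to 663 in the averaged comparison, 0 to 57 in males, 3 to 153 in females, 0 to 2 for the interaction and 50 to 359 between the sexes, and the receptors called from 0 to 2 in the averaged comparison and 0 to 1 in males. In these fits Nr1h2 ran from -0.10 to 0.23 averaged, -0.29 to 0.38 in females, -0.30 to 0.37 for the interaction and -0.31 to 0.0097 between the sexes. Nr1h3 ran from -0.12 to 0.080 averaged and -0.093 to 0.11 between the sexes. In males Nr1i2 ran from -0.072 to 0.21 and Rxra from -0.060 to 0.14. In females Pparg ran from -0.16 to 0.17, Ppard from -0.54 to 0.20, Esr1 from -0.095 to 0.70 and Nr3c1 from -0.71 to 0.047. The interaction ran from -0.19 to 0.997 for Nr1i3 and from -0.41 to 0.34 for Nr3c1. The averaged Nr1i3 difference and the male Ppard difference kept their sign in every alternative run. In all, 843 of the receptors' log2 differences under alternatives kept direction and side of the threshold, 13 gained a call and 62 turned sign. Of the log2 differences of called listed genes, run under the same alternatives by a choice made after seeing the data, 167 lost their call and 0 turned sign. The lowest count behind a receptor's value was 26, for Nr1i3 in Ahr-null female 1, and with 3 libraries a group the spread among libraries sets the width of the intervals.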
